A study of Rattus norvegicus with 42 samples.

Results

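The regions described here are distal glucocorticoid receptor (GR) binding sites of rat liver that had a peak under constant hormone infusion and none at the crest of a hormone pulse. They were taken from the 3981 GR regions of the authors' merged list by 3 conditions. The region lay more than 1000 b from the nearest transcription start site (TSS), it overlapped by at least 1 b a peak called in constant infusion at 140 min (CONS_140) or 180 min (CONS_180), and it overlapped no peak called in pulsatile infusion at 140 min (PEAK_140). This gave 499 sites, 12.5% of all GR regions and 14.2% of the 3507 distal ones. Of the 499 sites, 148 had a CONS_140 peak alone, 276 a CONS_180 peak alone and 75 had both. For comparison, 1912 distal regions had a peak in both patterns of infusion (shared sites) and 1020 had a PEAK_140 peak and no CONS peak (PEAK_140-only sites). The sites were chosen by peak calls made from these same GR libraries, so the CONS and PEAK_140 levels of the sites are given as a description.

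All animals were adrenalectomised male Sprague Dawley rats, which lack their own corticosterone (CORT), the main glucocorticoid of the rat. They received CORT or vehicle (VEH) over 3 h, either in a pulse of 20 min each hour (PULS) or at a constant rate with the dose matched (CONS). GR and elongating RNA polymerase II phosphorylated at serine 2 (pSer2 Pol2) were measured by ChIP-Seq in 5 groups of 2 libraries, each pooled from 6 rats: VEH, PEAK_140, NADIR_180 (the trough of PULS at 180 min), CONS_140 and CONS_180. RNA was sequenced at 180 min in 4 groups of 3, CORT and VEH in each pattern. The VEH ChIP group holds 1 library of 140 min and 1 of 180 min, both from pulsatile vehicle, so constant vehicle has no ChIP counterpart.

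GR libraries held 2051977 to 6715803 tags, pSer2 Pol2 libraries 4938473 to 9326927 tags and RNA libraries 3956379 to 7777219 reads. The deepest GR library was replicate 1 of CONS_140 and the shallowest was replicate 2 of PEAK_140 with 2051977 tags. The GR libraries of pulsatile CORT carry a separate run of library numbers from those of VEH and CONS. Library series and pulsatile CORT therefore cannot be told apart in GR. In pSer2 Pol2 this holds for both NADIR_180 libraries, while replicate 1 of PEAK_140 is numbered with them and replicate 2 near VEH. In RNA the title numbers of CORT and of pulsatile VEH lie apart, and those of constant VEH are spread. Summed hepatocyte markers ranged from 133076 to 179208 CPM (read counts scaled to library size) over the RNA libraries, those of Kupffer cells from 326 to 591 CPM and those of cholangiocytes from 8.31 to 15.8 CPM. No gene of the Kupffer, stellate, endothelial, cholangiocyte or blood marker lists was the nearest gene of one of the 499 sites. These lists hold 7, 6, 6, 5 and 6 genes. Over all genes tested in pSer2 Pol2, 340 of 16568 were nearest genes of a site, so absence from such short lists says little.

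GR is a nuclear receptor that enters the nucleus once CORT is bound and attaches to DNA, mostly at enhancers far from the genes they act on. In liver it is known for raising genes of gluconeogenesis and amino acid breakdown and for acting on lipid synthesis and on its own feedback genes. Serine 2 phosphorylation marks polymerase that is travelling through the body of a gene, so it reads ongoing transcription, whereas RNA reads what has accumulated.

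Sequence of the sites themselves was not used here, since no genome of the files' build (rn6) was at hand. The sites whose nearest gene is a microRNA have a product that can be printed, and 8 sites lay nearest 5 microRNA genes (Mir3591 with 3 sites, Mir193a with 2, and Mir107, Mir140 and Mir345 with 1 each). The mature RNAs below, from RefSeq on GRCr8, belong to Mir107 and Mir140, whose sites were above 3 in all 4 CONS libraries. Capitals mark the seed, bases 2 to 8, and the 3 seeds differ from each other.
rno-miR-107-3p: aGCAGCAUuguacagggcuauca
rno-miR-140-5p: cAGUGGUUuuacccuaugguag
rno-miR-140-3p: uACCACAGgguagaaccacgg
These are the products of the nearest genes, and microRNA levels were not measured.

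By its medians, GR at the 499 sites was higher in both infusion patterns than in VEH, and the absence of a PEAK_140 peak did not mean absence of GR at 140 min of pulsatile infusion. Values are log2 of normalised tags after subtraction of input DNA, and values below 0 lie at the bottom of this scale. The median of the sites was -0.69 and -0.91 in the 2 VEH libraries and 2.59 and 1.88 in PEAK_140. It was 3.57 and 2.30 in CONS_140 and 2.88 and 2.93 in CONS_180. At NADIR_180 the libraries stood apart, at 1.18 and -0.57. Shared sites had medians of 4.99 and 4.74 in PEAK_140 and of 4.13 to 4.46 in CONS, and PEAK_140-only sites had 3.41 and 3.08 in PEAK_140 and 1.28 to 2.41 in CONS. By these medians the 499 sites lay below the shared sites in the PEAK_140 and CONS libraries. In VEH both classes had medians at the bottom of the scale, but the upper quartiles were higher at the 499 sites, 1.76 and 1.15 in the 2 libraries against 0.78 and -0.37 at shared sites. The median of the VEH mean was -0.28 at the 499 and -0.55 at shared sites.

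**Figure D1:**
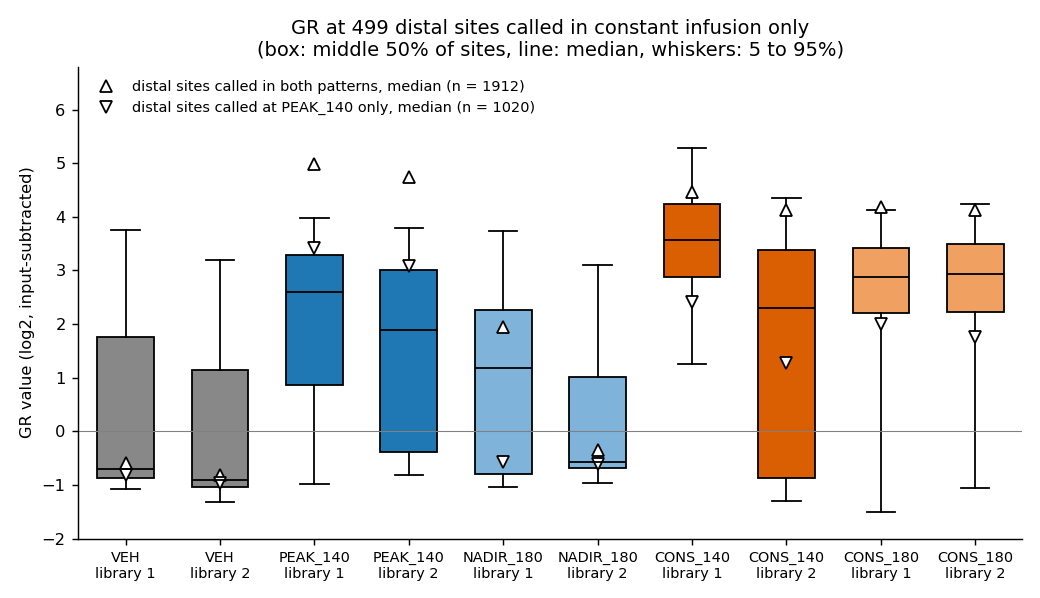
GR value (log2 of normalised, input-subtracted tags) in each of the 10 libraries for the 499 sites, the shared sites and the PEAK_140-only sites. The median of the 499 sites was -0.69 and -0.91 in VEH, 2.59 and 1.88 in PEAK_140 and 2.30 to 3.57 in the CONS libraries.

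The mean of the 4 CONS libraries was above the mean of the 2 PEAK_140 libraries at 380 of the 499 sites (76.2%) and below it at 119. The median difference was 0.77, with a range from -1.90 at the site nearest Ndfip1 to 4.40 at the site nearest Pigv. All 4 CONS libraries were above both PEAK_140 libraries at 67 sites (13.4%). The count of 380 was 336 without replicate 1 of CONS_140 and 417 without replicate 2. The median difference was 1.19 at sites with a CONS_140 peak alone, 0.38 with a CONS_180 peak alone and 0.79 with both. In shared sites it was -0.64, with CONS above PEAK_140 at 284 (14.9%), and in PEAK_140-only sites it was -1.50. Both PEAK_140 libraries were below 0 at 69 of the 499 sites and both VEH libraries at 234.

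**Figure D2:**
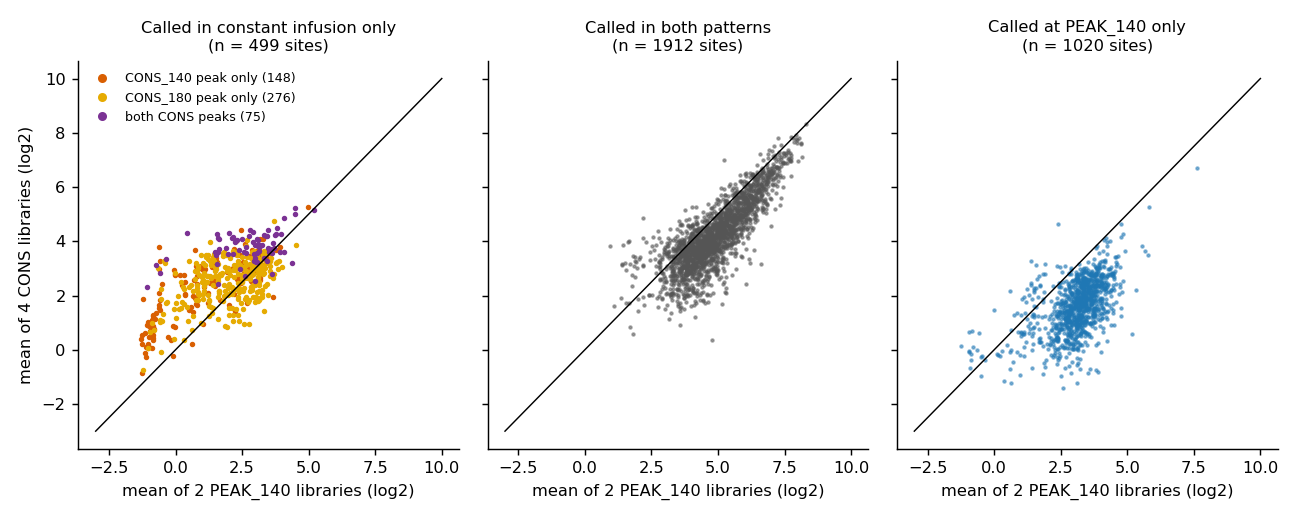
Mean GR value (log2) of the 4 CONS libraries against the mean of the 2 PEAK_140 libraries, 1 point per site, with the line of equal values. The 499 sites lie on both sides of the line, 380 above it and 119 below it.

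The 10 sites with the highest CONS mean had values of 4.40 to 5.25, and several of them were as high at PEAK_140. The site 5495 b from the start of Trib1, a pseudokinase gene linked to plasma lipids, lies in an intron at chr7:99959623-99960352 (rn6). GR there was -0.61 and -0.80 in VEH, 5.45 and 4.95 in PEAK_140, 1.99 and -0.37 in NADIR_180, 4.87 and 5.87 in CONS_140 and 4.97 and 4.88 in CONS_180. Both PEAK_140 values lie within the range of the CONS values, although no PEAK_140 peak was called. The site 11015 b from the start of Fgb, which encodes the fibrinogen beta chain, at chr2:182023660-182024375, had -0.67 and -0.86 in VEH, 5.33 and 3.61 in PEAK_140, 1.48 and -0.44 in NADIR_180, 4.95 and 4.53 in CONS_140 and 5.34 and 5.16 in CONS_180. There 1 PEAK_140 library lay within the range of CONS and the other below it. The site 50565 b upstream of Wdr26 (chr13:99582199-99582849) had 0.74 and 0.51 in VEH, 4.73 and 4.28 in PEAK_140, 1.53 and 1.75 in NADIR_180, 6.44 and 5.63 in CONS_140 and 3.98 and 4.89 in CONS_180. There CONS_140 was above PEAK_140 and CONS_180 overlapped it. The highest CONS mean, 5.25, belonged to a site 14202 b upstream of the unnamed locus AABR07062157.1, with 5.52 and 4.42 in PEAK_140. The remaining 6 were the sites nearest RF00402 (4.86), Pck1 (4.74 and 4.40), Dock4 (4.50), AC132020.1 (4.41) and AABR07035412.2 (4.41), given as CONS means.

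At 9 of the 10 sites with the largest excess of CONS over PEAK_140 both PEAK_140 libraries lay below 0, the exception being the site of RF00002, and several of these sites had signal in VEH. The largest was an exonic site 8667 b upstream of Pigv, a gene of glycosylphosphatidylinositol anchor synthesis, at chr5:151906426-151906953. It had -0.73 and -0.51 in PEAK_140 and 6.53, 6.85, 1.63 and 0.11 in CONS, but also 2.74 and 2.48 in VEH and 1.37 and -0.73 in NADIR_180. VEH was thus above both CONS_180 libraries. An upstream site of Slc25a13, a mitochondrial aspartate and glutamate carrier, lacked signal in VEH: values were -0.95 and -1.11 in VEH, -0.76 and -0.57 in PEAK_140, 1.19 and -0.75 in NADIR_180 and 3.37, 2.71, 2.99 and 3.01 in CONS. Here CONS stood above every other library with no overlap. The other 8 had differences of 3.40 to 3.86 (2 sites of Alb and 1 each of RF00002, Pck1, Il34, AABR07034550.1, Parp16 and Chd9). Over all 499 sites the VEH mean was above 2 at 78 (15.6%), and 12 overlapped a VEH peak and 2 a NADIR_180 peak.

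**Figure D3:**
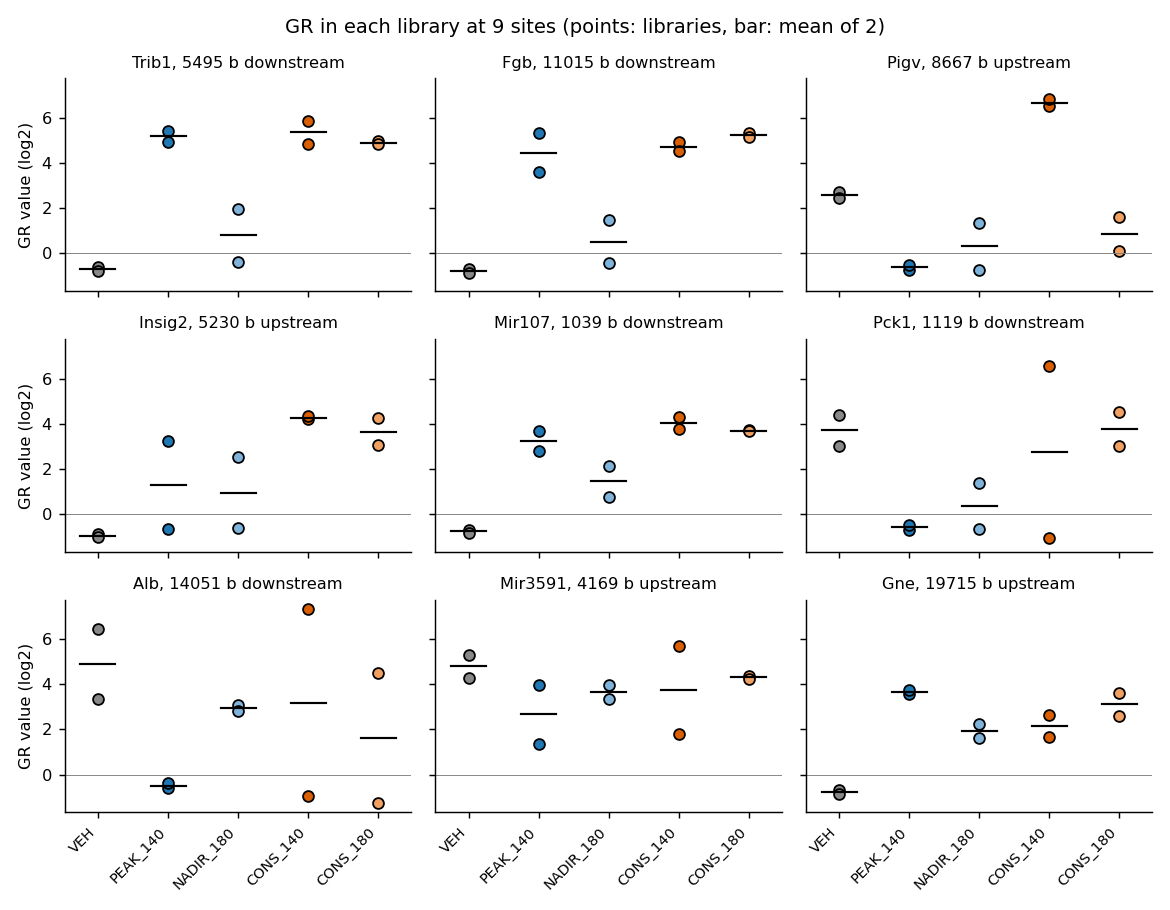
GR value (log2) in all 10 libraries at 9 of the sites, 1 panel per site with its distance in b from the start of the nearest gene. Trib1 and Fgb sites had PEAK_140 values near the CONS values, the Pigv and Alb sites had VEH signal, and the Insig2 site was above 3 in all 4 CONS libraries.

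A single library stood apart at some of the sites. Replicate 1 of CONS_140 was more than 2 above every other CONS library at 47 of the 499 sites (9.42%), against 2 of the shared sites (0.105%) and 19 of the PEAK_140-only sites (1.86%), and 44 of the 47 had a CONS_140 peak alone. Many of these sites fell in highly transcribed liver genes. An intronic site of Alb (albumin) 14051 b from its start had 7.34 and -0.96 in CONS_140, -1.25 and 4.53 in CONS_180, -0.61 and -0.38 in PEAK_140, 3.07 and 2.84 in NADIR_180 and 6.46 and 3.35 in VEH. A site 1237 b from the start of Ppp1r3b, a glycogen-targeting phosphatase subunit, had 6.84 in that library against -1.48, -1.76 and -1.68 in the other CONS libraries, and 5.97 and 3.12 in VEH. A site of Arg1 (arginase) 12950 b from the start had 6.49 against -1.72, -2.01 and -1.93, with 4.09 and -1.79 in VEH. Of the 47 sites, 32 (68.1%) lay within a gene. The nearest genes of 41 had a measured pSer2 Pol2 level, with a median at percentile 99.3 of all genes per length, and 28 of them (68.3%) were in the top 10%. Replicate 2 of CONS_140 was below 0 at 145 of the 499 sites, 53 of them among the 148 with a CONS_140 peak alone, while replicate 1 was below 0 at 10. The part of this library's depth and of transcription through the sites in these values was not tested.

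By their medians the 499 sites lay closer to genes than the other distal sites, which is a description with no test. The median distance to the nearest TSS was 12540 b, against 19557.5 b in shared and 19606.5 b in PEAK_140-only sites, with a range of 1003 b to 403937 b. It was 8886.5 b for sites with a CONS_140 peak alone and 16153 b for those with a CONS_180 peak alone. Within 10 kb lay 210 sites (42.1%), against 32% and 33% of the other classes, and beyond 50 kb lay 84 (16.8%), against 22.9% and 24.3%. The sites divided evenly around the TSS, with 239 upstream. By the authors' annotation 265 (53.1%) were intergenic, 193 (38.7%) intronic, 24 (4.81%) exonic and 17 (3.41%) at a transcription termination site. Exonic sites made up 1.83% of shared and 1.18% of PEAK_140-only sites. Of the 499 sites, 91 (18.2%) lay in repeats, 21 in simple repeats and 26 in SINE elements. Repeats held 16.9% of the 1912 shared sites, with 16 in simple repeats and 74 in SINE elements. They held 17.9% of the 1020 PEAK_140-only sites, with 2 in simple repeats and 40 in SINE elements. The median distance to the nearest region with a PEAK_140 peak was 54512 b, and 78 sites (15.6%) had one within 5 kb. Just inside the distance limit were the sites of Spred1 (-1003 b), Nr1d1 (-1019 b) and Tssk6 (1019 b), with CONS means of 3.07, 2.96 and 3.54. Just outside were regions of Nr3c2 (969 b), Man1a2 (962 b) and Socs2 (-953 b), with 0.24, 3.49 and 2.40. A further 186 regions with a CONS peak and no PEAK_140 peak lay within 1000 b of a TSS.

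The 499 sites had 455 nearest genes, and 418 of these had 1 site, 32 had 2, Mir3591, Pck1 and Smad7 had 3, and Alb and Ass1 had 4. Among the sites of Pck1, which encodes the phosphoenolpyruvate carboxykinase of gluconeogenesis, those 6797 b and 5047 b from the start lie at its termination site and in an exon. The site at 6797 b had 1.94 and 3.11 in VEH, 3.95 and 3.44 in PEAK_140, and 5.63, 3.80, 4.63 and 4.90 in CONS. The intronic site at 1119 b (chr3:171214792-171215319) had 4.40 and 3.03 in VEH, -0.69 and -0.47 in PEAK_140, and 6.56, -1.05, 3.00 and 4.51 in CONS. VEH and CONS thus overlapped at 1119 b, while 3 of 4 CONS libraries were above VEH and PEAK_140 at 6797 b, the exception being replicate 2 of CONS_140. Pck1 had 3 further GR regions outside the rule, of which the one 5610 b upstream had means of 5.6 in PEAK_140 and 5.44 in CONS, and the promoter region centred 395 b upstream 6.24 and 6.18. Smad7, an inhibitor of TGF-beta signalling, had sites 21970 b, 92215 b and 98231 b from its start. The first had -0.87 and -1.05 in VEH, 3.64 and 2.35 in PEAK_140, and 4.32, 3.96, 3.25 and 3.89 in CONS.

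Of the sites nearest microRNA genes, the one 1039 b from Mir107 had -0.69 and -0.86 in VEH, 2.79 and 3.69 in PEAK_140, 0.75 and 2.15 in NADIR_180 and 4.31, 3.77, 3.71 and 3.67 in CONS. CONS was above VEH in every library, and the lowest CONS value was just below the higher PEAK_140 value. The site of Mir140 had 0.78 and 3.80 in VEH, 3.13 and -0.04 in PEAK_140, 4.23 and 3.67 in NADIR_180 and 4.59, 4.34, 4.24 and 3.85 in CONS, so 1 VEH library lay far below CONS and the other just below it, and 1 NADIR_180 library lay within the range of CONS. The Mir3591 gene lies on the strand opposite to Mir122, the main microRNA of hepatocytes. Its site 4169 b upstream had 5.31 and 4.30 in VEH, 3.98 and 1.38 in PEAK_140 and 5.72, 1.81, 4.39 and 4.23 in CONS, and its other sites were also high in VEH replicate 1 (4.85 and 3.05).

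Because the rule used neither NADIR_180 nor VEH libraries, GR at NADIR_180 was tested against VEH, a comparison across library series. At the trough of the pulse few of the 499 sites differed from VEH by the test, and the NADIR_180 libraries disagreed with each other. The median log2 fold change of NADIR_180 against VEH was 0.23, against 0.84 over all GR regions, 1.29 in shared and 0.24 in PEAK_140-only sites. In limma over all 3981 regions (Benjamini-Hochberg adjusted p below 0.05 and more than 1.5-fold), 2 of the 499 sites were called, both raised. The background was 7.79% of all regions called (7.44% raised, 0.352% lowered), and 24 of the 499 had an unadjusted p below 0.05. Shared sites had 259 raised and 2 lowered, and PEAK_140-only sites 11 raised. Neither of the called sites overlapped a NADIR_180 peak.

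The site 222088 b upstream of the unnamed locus AABR07062544.1 (chr4:182106482-182107142) had -0.54 and -0.72 in VEH and 4.04 and 3.50 in NADIR_180, with 3.93 and 3.62 in PEAK_140 and 4.07 to 4.39 in CONS. GR was thus as high at the trough as at the crest of the pulse. NADIR_180 exceeded VEH by 4.40 (log2, SE 0.52, limma adjusted p = 0.0018). The site 19715 b upstream of Gne, an enzyme of sialic acid synthesis (chr5:59572819-59573444), had -0.69 and -0.84 in VEH, 2.25 and 1.64 in NADIR_180, 3.6 and 3.74 in PEAK_140 and 2.63, 1.68, 3.61 and 2.62 in CONS. Its NADIR_180 values lay between VEH and PEAK_140, 2.71 above VEH (SE 0.67, limma adjusted p = 0.043). The Gne call was lost on leaving out any 1 of 7 libraries (both of VEH, PEAK_140 and CONS_180, and replicate 1 of NADIR_180), with differences of 2.40 to 2.79, while the AABR07062544.1 call was kept without each library in turn. Both were lost after centring of every library, with differences of 1.53 and 3.22. Without replicate 2 of NADIR_180 the count of called sites was 21, without replicate 1 it was 5, without replicate 1 of VEH or either CONS_140 library 4, and in a fit of the VEH and NADIR_180 libraries alone it was 0.

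Genes near the 499 sites were among the more transcribed genes of the liver. Of the 455 nearest genes 340 had a measured pSer2 Pol2 level, and their median stood at percentile 80.3 of all genes on a per-length scale, with 128 (37.6%) in the top 10%. Nearest genes of shared sites had a median percentile of 79.5 and 32.5% in the top 10%, and those of PEAK_140-only sites 74.0 and 24.2%. By where the site lay, the median percentile was 98.7 for exonic sites, 99.5 for sites at a termination site, 86.3 for intronic and 74.8 for intergenic sites. It was 91.9 for sites within 10 kb of the TSS and 68.7 for those beyond 50 kb. Across 380 of the 499 sites the Spearman correlation of this percentile was -0.17 with the CONS mean, -0.17 with the PEAK_140 mean, 0.12 with the difference of these and 0.05 with the VEH mean, a description over sites that share libraries and genes. Of the 499 sites, 92 (18.4%) overlapped a region in which pSer2 Pol2 itself was measured.

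For the response of the nearest genes, a division by other GR regions was used, since 192 of the 455 genes (42.2%) were also the nearest gene of a GR region outside the rule, and 263 were not. These sets differed in pSer2 Pol2 level. The median percentile was 92.8 with another GR region and 69.3 with none, with 54.4% and 23.1% of genes in the top 10%. The part of this level in the counts of called genes was not tested. The pSer2 Pol2 comparisons with VEH share the 2 VEH libraries. At PEAK_140, 18 of the 340 tested nearest genes were raised and 12 lowered (8.82%), where the background was 1.01% of all genes called (0.38% raised and 0.634% lowered, limma with Benjamini-Hochberg adjustment). At CONS_140, 23 were raised and 2 lowered (7.35%, background 0.821%, with 0.646% raised and 0.175% lowered). The 11 genes called at CONS_180 were all raised (3.24%, background 0.235%, with 0.181% raised and 0.0543% lowered). At NADIR_180 limma called 0, with 23 at an unadjusted p below 0.05, and the background was 0.00604%, 1 gene. The shares were above the background, as they were for the nearest genes of shared sites, of which 1065 were tested with 42 raised and 18 lowered at PEAK_140 and 75 raised and 10 lowered at CONS_140. Leaving out 1 library gave 5 to 21 called genes at PEAK_140, 6 to 73 at CONS_140 (73 without its own replicate 2) and 0 to 8 at CONS_180.

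Most of the raised genes also had another GR region, but at CONS_140 the size of the gap to genes with none depended on 1 library. Among the 158 tested genes with another region, 18 were raised and 5 lowered at PEAK_140, 22 and 1 at CONS_140, and 11 and 0 at CONS_180. Among the 182 genes whose GR regions all belonged to the 499, 0 were raised and 7 lowered at PEAK_140 (22 at an unadjusted p below 0.05). At CONS_140, 1 was raised and 1 lowered, and at CONS_180 0 were called (13 at an unadjusted p below 0.05). The shares called at PEAK_140, CONS_140 and CONS_180 were 14.6%, 14.6% and 6.96% with another region. They were 3.85%, 1.10% and 0% with none, against a background of 1.01%, 0.821% and 0.235%. Without replicate 2 of CONS_140, 26 genes with no other region and 40 with one were raised at CONS_140. The 7 genes lowered at PEAK_140 with no other region became 2 to 5 without any 1 of the VEH, PEAK_140 or NADIR_180 libraries, and the 18 raised with another region became 3 to 11 without any 1 library. The difference between these sets of genes was not tested. The 7 lowered genes were Fabp1 (liver fatty acid binding protein), Cyp2a1 (a cytochrome P450), Insig2 (which holds back activation of sterol regulatory element binding proteins), Cat (catalase), Gucy1b2 (a guanylate cyclase subunit), Paqr7 (a membrane progestin receptor) and AABR07035343.1.

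**Figure D4:**
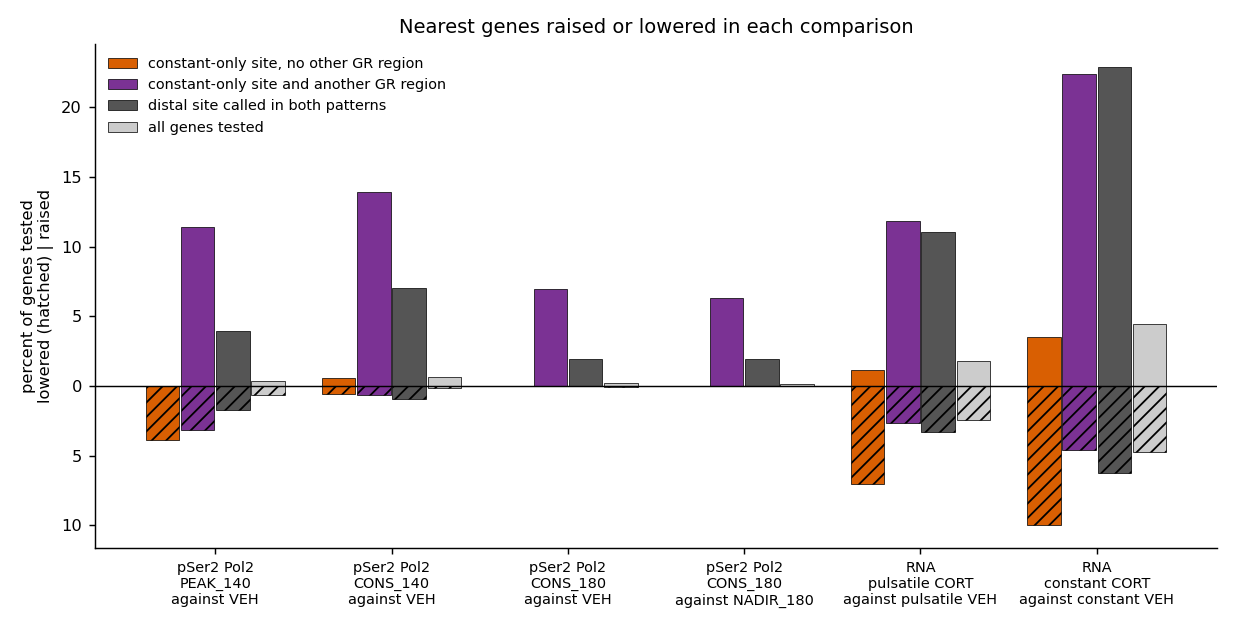
Percent of tested genes called raised (upward bars) and lowered (hatched, downward bars) in pSer2 Pol2 and RNA comparisons. The 4 sets of genes include all genes tested. Bars are percentages, and the numbers that follow are counts of genes. With another GR region, 18 genes were raised at PEAK_140 and 22 at CONS_140, and with no other region 0 and 1, where leaving out replicate 2 of CONS_140 gave 40 and 26 at CONS_140.

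Fabp1 had pSer2 Pol2 values (log2) of 10.41 and 10.34 in VEH, 7.14 and 7.15 in PEAK_140, 9.0 and 8.55 in NADIR_180, 6.19 and 4.97 in CONS_140 and 8.36 and 7.61 in CONS_180. Every CORT library was below both VEH libraries, lowest in CONS_140. Fabp1 fell by 3.23 at PEAK_140 (SE 0.43, limma adjusted p = 0.0054) and by 4.79 at CONS_140 (adjusted p = 0.00062). The PEAK_140 call was lost without any 1 of the VEH, PEAK_140 or NADIR_180 libraries (adjusted p from 0.053 to 0.086), and the CONS_140 call was kept without each library in turn. Its site, 5170 b upstream, had GR values of -1.09 and -1.25 in VEH, 3.19 and 1.5 in PEAK_140 and 1.0, -1.20, 3.93 and 1.44 in CONS. Fabp1 RNA was 0.34 and 0.46 lower (log2) in PULS and CONS, neither called.

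Insig2 was the gene of the 499 sites called between the patterns at 140 min, where the background was 0.0302% of genes (5 genes in all, 0.0241% raised and 0.00604% lowered). Its pSer2 Pol2 values were 9.93 and 9.59 in VEH, 6.69 and 6.75 in PEAK_140, 9.23 and 9.72 in NADIR_180, 9.32 and 9.10 in CONS_140 and 8.57 and 8.49 in CONS_180. Occupancy fell at the crest of the pulse, was back near VEH at the trough, and in CONS stayed between the PEAK_140 and VEH values. Insig2 fell by 3.04 at PEAK_140 (SE 0.31, limma adjusted p = 0.0013), and CONS_140 exceeded PEAK_140 by 2.49 (adjusted p = 0.047). The PEAK_140 call was kept without each library in turn, and the call between the patterns was lost without any 1 of 9 libraries, with adjusted p from 0.082 to 0.19. Insig2 RNA was 223, 225 and 187 CPM in constant CORT and 455, 342 and 573 CPM in constant VEH, groups that do not overlap. It was 193, 245 and 235 CPM in pulsatile CORT, which overlapped constant CORT, and 411, 193 and 257 CPM in pulsatile VEH. The log2 fold change was -1.11 in CONS (SE 0.23, edgeR adjusted p = 0.0035) and -0.36 in PULS (adjusted p = 0.41), and the difference of the responses, -0.75, did not pass the test (adjusted p = 0.33). Its GR site, 5230 b upstream (chr13:37292376-37293001), had -0.87 and -1.04 in VEH, -0.65 and 3.26 in PEAK_140, 2.52 and -0.64 in NADIR_180 and 4.21, 4.36, 3.06 and 4.25 in CONS.

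With the replicate number as a block, 28 nearest genes were called between CONS_140 and PEAK_140 (24 raised, 4 lowered) instead of 1. At 180 min, 10 nearest genes were raised and 0 lowered in CONS_180 against NADIR_180 (2.94%, background 0.175%, with 0.169% raised). The count was 0 without either CONS_180 library, 3 and 7 without replicates 1 and 2 of NADIR_180, 9 without any other library, and 0 with only the 4 libraries compared. All 10 had another GR region. They included Lpin1, Tsc22d3, Mfsd2a, Tsku and Ass1.

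Lpin1 encodes lipin 1, a phosphatidate phosphatase of triglyceride synthesis. Its pSer2 Pol2 was 7.53 and 5.85 in VEH, 11.2 and 11 in PEAK_140, 6.57 and 6.22 in NADIR_180, 11.3 and 10.9 in CONS_140 and 11.3 and 10.9 in CONS_180. Occupancy was up at the crest and throughout CONS, and within the range of VEH at the trough. The log2 fold change against VEH was 4.40 in both groups of 140 min and 4.43 at CONS_180, and it was 4.73 in CONS_180 against NADIR_180 (SE 0.47, limma adjusted p = 0.0033). Without replicate 1 of CONS_140 all 4 of these calls were lost. The calls of CONS_180 against VEH and against NADIR_180 were also lost without either CONS_180 library. Lpin1 RNA rose by 3.05 in PULS and 4.26 in CONS (edgeR adjusted p = 4.1e-06 and 4.6e-08), with a difference of 1.21 that did not pass the test (adjusted p = 0.13). Its sites were intronic. The one 10648 b upstream had -0.82 and -0.94 in VEH, 1.91 and 2.76 in PEAK_140 and 1.18, 2.10, 3.69 and 2.90 in CONS, while the one at 19742 b was above 2 in replicate 1 of CONS_140 alone (4.06).

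Tsc22d3, which encodes the anti-inflammatory GR target GILZ, behaved alike. Its pSer2 Pol2 was 5.64 and 5.71 in VEH, 9.18 and 8.99 in PEAK_140, 6.04 and 6.12 in NADIR_180 and 8.53 to 10.15 in CONS. Against VEH it rose by 3.41 (PEAK_140), 4.16 (CONS_140) and 3.06 (CONS_180; limma adjusted p = 0.0012, 0.00033 and 0.0029), of which the CONS_180 call was lost without replicate 2 of VEH or either CONS_180 library (adjusted p from 0.089 to 0.12), and its RNA rose by 2.50 and 3.00 in PULS and CONS. Its member site lay 36258 b from the start and had 1.99 and 3.28 in PEAK_140 and 2.40 to 3.57 in CONS, and Tsc22d3 had 5 further GR regions. Mfsd2a, a lysophospholipid and fatty acid transporter, rose by 3.10 in PEAK_140 against 3.61 in CONS_140 and 2.76 in CONS_180 (this last call lost without replicate 2 of VEH or either CONS_180 library, limma adjusted p from 0.089 to 0.12), and its RNA by 2.18 (PULS) and 3.86 (CONS). Slc25a15, the mitochondrial ornithine carrier of the urea cycle, rose by 2.44 at PEAK_140 and 1.96 at CONS_140, calls lost without replicate 2 of VEH (limma adjusted p = 0.062 and 0.077), the first also without replicate 1 of PEAK_140 (0.058) and the second without either NADIR_180 library or replicate 1 of CONS_140 (0.059 to 0.089). Its RNA rose from 131 to 150 CPM in constant VEH to 660 to 785 CPM in constant CORT.

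**Figure D5:**
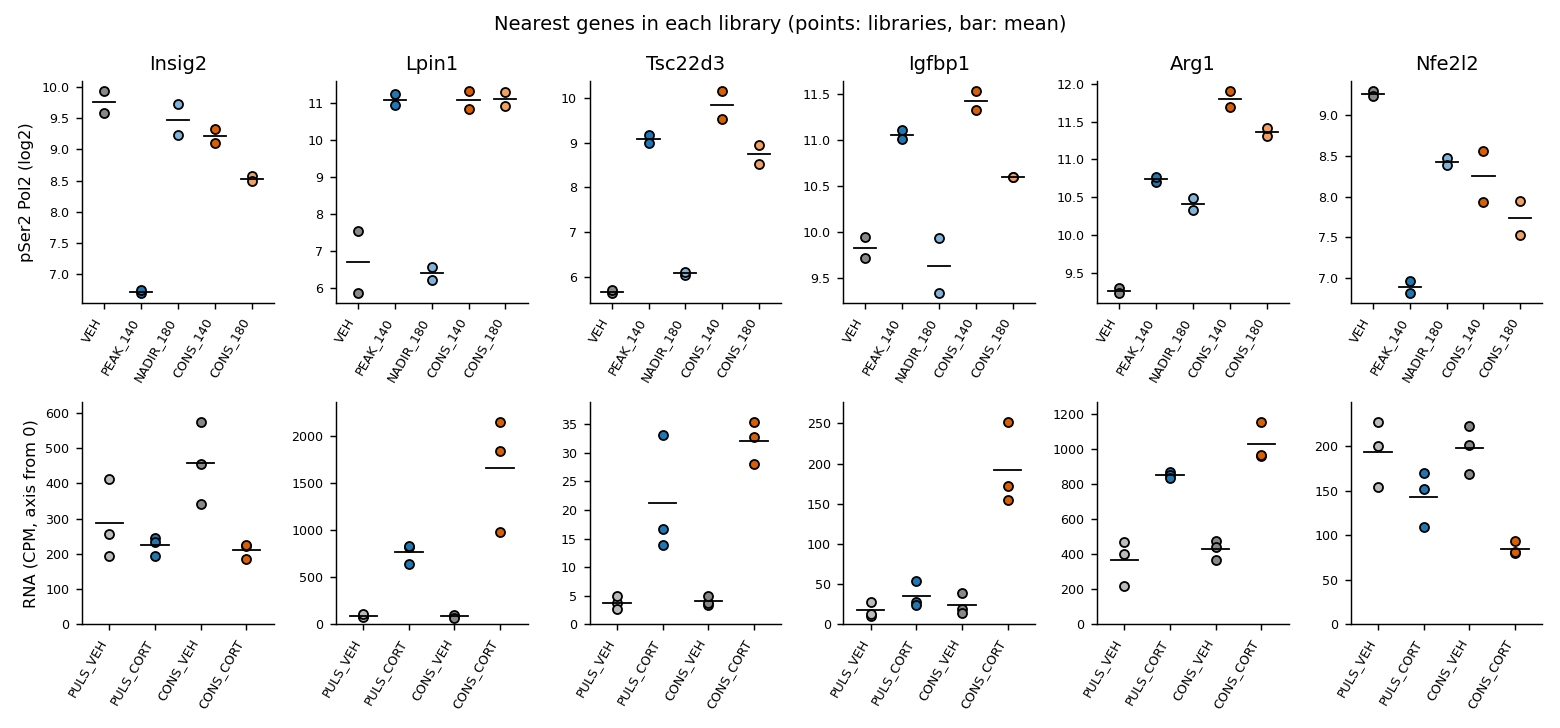
pSer2 Pol2 (log2, top) and RNA (CPM, linear axis from 0, bottom) of 6 nearest genes, 1 point per library. Insig2 and Nfe2l2 were lowest in PEAK_140 for pSer2 Pol2, Lpin1 and Tsc22d3 were high in PEAK_140 and CONS and low in NADIR_180, and Igfbp1 RNA was 154 to 251 CPM in constant CORT.

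In RNA, 322 of the 455 nearest genes were tested. In PULS, 20 were raised and 16 lowered against pulsatile VEH (11.2%, where the background was 4.23%, with 1.79% raised and 2.44% lowered in edgeR). In CONS, 40 were raised and 24 lowered against constant VEH (19.9%, background 9.2%, with 4.45% raised and 4.75% lowered). In these bulk livers, a change in the number of cells of a type and one in RNA per cell cannot be told apart. The 40 genes raised in CONS had a median log2 fold change of 1.35 in CONS and 0.88 in PULS, where 17 of them were also called. The 24 lowered had -1.13 in CONS and -0.40 in PULS, with 9 also called. Both sets were chosen by their call in CONS, which favours larger changes there, so these medians do not compare the patterns. The difference between the responses passed the test at 0 of 322 genes in edgeR (68 at an unadjusted p below 0.05, lowest adjusted p 0.067, background 0.0284%, with 0.0071% raised and 0.0213% lowered), and DESeq2 called 21, 10 raised and 11 lowered. The larger CONS changes are therefore not shown by edgeR to differ from those of PULS.

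The counts in RNA also differed between genes with and without another GR region, sets that differ in pSer2 Pol2 level as given above. Of 152 genes with another region, 18 were raised and 4 lowered in PULS (11.8% and 2.63%), and 34 and 7 in CONS (22.4% and 4.61%). Of 170 genes with none, 2 were raised and 12 lowered in PULS (1.18% and 7.06%), and 6 and 17 in CONS (3.53% and 10.0%). The background was 1.79% raised and 2.44% lowered in PULS, and 4.45% and 4.75% in CONS. The shares raised with no other region rest on 2 and 6 genes and lay near the background in both patterns. For the 1022 nearest genes of shared sites the counts were 113 and 34 in PULS and 234 and 64 in CONS (29.2%). The 6 genes with no other region that rose in CONS were Klf13, Fosl2, Nr1d1, Sall1, Slc25a33 and Mrps18a, listed whatever their rank because they are few. Fosl2, an AP-1 subunit, had 27, 18.3 and 19 CPM in constant CORT and 7.82, 7.05 and 6.33 CPM in constant VEH (log2 fold change 1.58, SE 0.25, edgeR adjusted p = 0.00041), and 0.05 in PULS. Klf13, a Kruppel-like factor, rose by 1.60 in CONS and 1.02 in PULS. Nr1d1 (Rev-erb alpha, a repressor of the circadian clock) rose by 0.88 in CONS, a call near the threshold (edgeR adjusted p = 0.044) that was lost on leaving out any 1 of 10 of the 12 libraries (0.051 to 0.16).

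The 17 genes with no other region that fell in CONS were Srebf1, Insig2, Khk, Gucy1b2, Paqr7, Nrip1, Cyp2a1, Dennd4a, Dnajc5b, Nav2, Ninj1, Cenpm, Parp16, Atp2b2, AABR07035309.1, AABR07028902.1 and AABR07035343.1. The values given for Khk, Nrip1, Paqr7 and Cyp2a1 in RNA were chosen after they were seen. Srebf1, the transcription factor of fatty acid synthesis, had 50.4, 111 and 72.0 CPM in constant CORT and 218, 212 and 252 CPM in constant VEH. The groups did not overlap, with a log2 fold change of -1.54 (SE 0.28, edgeR adjusted p = 0.0015) in CONS and 0.14 in PULS. The difference, -1.68, had an adjusted p of 0.089 in edgeR. Its site lay 3348 b upstream, with -0.85 and -1.0 in VEH, 0.75 and 3.17 in PEAK_140 and 3.04, -0.95, 3.36 and 2.68 in CONS. Khk, the ketohexokinase of fructose metabolism, had 146, 155 and 145 CPM in constant CORT and 233, 285 and 314 CPM in constant VEH, -0.90 on the log2 scale (SE 0.13, edgeR adjusted p = 0.00023), and 0.00 in PULS. Gucy1b2 fell in both patterns, by 1.44 in PULS and 1.99 in CONS. Its site, 3801 b upstream, had GR in every library, with 4.27 and 4.23 in VEH, 3.72 and 2.95 in PEAK_140 and 4.02 to 4.48 in CONS. Paqr7 (-1.55), Nrip1 (-0.77, a corepressor of nuclear receptors) and Cyp2a1 (-0.64) also fell in CONS, given as log2 fold changes.

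Among the lowered genes with another GR region, Nfe2l2, the oxidative stress factor NRF2, had 80.2, 93.8 and 81.0 CPM in constant CORT and 222, 201 and 168 CPM in constant VEH. The log2 fold change was -1.21 (SE 0.17, edgeR adjusted p = 0.00019) in CONS and -0.44 in PULS (adjusted p = 0.16). Its pSer2 Pol2 fell by 2.38 at PEAK_140 (limma adjusted p = 0.0061, and 0.053 to 0.071 without any 1 of the VEH, PEAK_140 or NADIR_180 libraries) and was -1.02 and -1.53 in CONS_140 and CONS_180, not called. Arrdc3 had -2.24 at PEAK_140 in pSer2 Pol2 (limma adjusted p = 0.0046, and 0.058 to 0.063 without either VEH library or replicate 1 of PEAK_140) and -1.29 and -2.36 in PULS and CONS RNA, and Inhba, the activin A subunit, -3.31 in CONS RNA. Of the raised ones, Igfbp1, an insulin-repressed binding protein of insulin-like growth factors, had 251, 172 and 154 CPM in constant CORT and 19.3, 14.3 and 39.3 CPM in constant VEH. It rose by 2.98 in CONS (SE 0.37, edgeR adjusted p = 5.1e-05), was 1.05 in PULS (adjusted p = 0.14), and the difference of 1.94 did not pass the test (adjusted p = 0.14). Its pSer2 Pol2 rose by 1.60 at CONS_140 (limma adjusted p = 0.02), a call lost on leaving out any 1 of 7 libraries (0.057 to 0.13).

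The nearest genes that belong to the pathway lists are given by list, as a description. For scale, 340 of the 16568 genes tested in pSer2 Pol2 were nearest genes of a site. Over all genes tested in RNA, 4.45% were raised and 4.75% lowered in CONS, and 1.79% and 2.44% in PULS. Of the 22 genes of amino acid breakdown, the 4 with a site were Ass1, Arg1, Mat1a and Bhmt, enzymes of the urea and methionine cycles. In pSer2 Pol2 they rose at CONS_140 by 2.42 (Ass1), 2.54 (Arg1), 1.43 (Mat1a) and 2.02 (Bhmt), with limma adjusted p = 0.0044, 0.00068, 0.014 and 0.0027. The Arg1 call was kept without each library in turn. Without replicate 2 of VEH the calls of Ass1 (adjusted p = 0.057), Mat1a (0.1) and Bhmt (0.056) were lost, and those of Ass1 (0.097) and Bhmt (0.055) also without replicate 1 of CONS_140. The Ass1 and Mat1a calls were lost as well without either NADIR_180 library (0.054 to 0.059), and that of Mat1a without replicate 1 of VEH (0.052) or replicate 2 of CONS_180 (0.054). In CONS RNA, Ass1 (1.02), Arg1 (1.26) and Mat1a (1.35) rose, and Bhmt, which rose in PULS by 1.44, had 0.47 in CONS and was not called. The whole list had 13 raised and 0 lowered of 21 tested in CONS and the same counts in PULS. Of the 4 intronic Ass1 sites, the one 15206 b from the start was led by replicate 1 of CONS_140, with 4.42, -1.15, -1.33 and -0.19 in CONS, and the one at 1957 b had 4.45, 2.39, 2.04 and 3.22.

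Of 27 genes of lipid metabolism, Srebf1, Insig2, Lpin1 and Angptl4 had a site, with RNA in CONS lowered, lowered, raised and not called. The whole list had 4 raised and 12 lowered of 25 in CONS and 1 and 0 in PULS, next to a median log2 fold change of -0.72 in CONS and 0.00 in PULS. Of 19 gluconeogenesis and glycogen genes, Pck1, G6pc, Foxo3, Ppp1r3b and Ppp1r3c had a site. Pck1 RNA rose by 1.0 in PULS and 0.91 in CONS with no call in pSer2 Pol2, Foxo3 RNA rose by 1.19 and Ppp1r3c RNA by 1.66 in CONS. The whole list had 7 raised and 1 lowered of 18 in CONS and 5 and 0 in PULS. Of the 20 GR feedback genes, Tsc22d3, Ddit4 and Gadd45g had a site, with 10 raised and 2 lowered of 17 for the list in CONS, and of these 3 genes Tsc22d3 was called.

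Of the acute phase and immune list of 21, Fga, Fgb, Il6r, Socs2 and C3 had a site. Il6r, the interleukin 6 receptor, rose by 2.58 at CONS_140 in pSer2 Pol2 (limma adjusted p = 0.0062, and 0.057 to 0.11 without replicate 2 of VEH, either NADIR_180 library or replicate 1 of CONS_140) and by 0.90 and 1.72 in PULS and CONS RNA, and Socs2, an inhibitor of cytokine and growth hormone signalling, was lower by -3.99 at CONS_140 in pSer2 Pol2 (limma adjusted p = 0.022, and 0.051 to 0.22 without any 1 of 9 libraries) and not called in RNA. The whole list had 2 raised and 3 lowered of 17 in CONS. Cyp27a1, the sterol 27-hydroxylase, was the bile acid gene with sites and rose by 0.74 and 0.86 in RNA, in a list with 4 raised and 2 lowered of 13 in CONS. Of the 16 growth genes, Igfbp1 and Egfr had a site and both rose in CONS RNA (Egfr by 0.88), in a list with 5 raised and 3 lowered of 15. The 5 hepatocyte marker genes with a site, Alb, Apoa1, Tf, Serpina1 and Cebpa, were called in no comparison of pSer2 Pol2 or, for the 4 measured there (Cebpa was not), of RNA.

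Promoters of the nearest genes were searched for short motifs in RefSeq windows on GRCr8, from 250 b before to 50 b after each start, on both strands. A window was found for 248 of 435 nearest-gene symbols. The hexamer TGTTCT of the GR element was in 10.9% of the 248 and in 20.1% of all 27457 promoters. The cyclic AMP element TNACGTCA was in 4.03% and 3.39%. Of the other motifs searched, the full GR element was in 0% and 0.422%, that of C/EBP in 13.7% and 10.5%, and that of HNF4 in 3.23% and 1.73%. The FOX motif was in 2.82% and 3.76%, that of STAT5 in 5.2% and 8.7%, and that of AP-1 in 6.05% and 7.33%. Differences went both ways and were not tested. These are matches of letters, and the distal sites themselves were not searched. The Pck1 promoter, whose own GR region outside the rule had the highest level of the gene, is shown on the plus strand at chr3:182348322-182348621 (GRCr8) with its cyclic AMP element in capitals.
Pck1: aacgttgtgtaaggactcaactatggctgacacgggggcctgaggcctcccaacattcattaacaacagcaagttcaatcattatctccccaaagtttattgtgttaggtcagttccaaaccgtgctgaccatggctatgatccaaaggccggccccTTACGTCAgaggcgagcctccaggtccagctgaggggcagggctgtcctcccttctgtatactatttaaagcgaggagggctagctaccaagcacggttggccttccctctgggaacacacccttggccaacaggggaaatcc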

How the data were processed

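GR and pSer2 Pol2 ChIP-Seq and RNA-Seq libraries of rat liver were used, 32 with values of their own. Input libraries entered through the authors' subtraction. According to the methods and the submitters' processing notes, ChIP reads were trimmed with Trimmomatic 0.36, aligned to rn6 and freed of duplicates, and peaks were called with HOMER 4.9.1 for each group and filtered at an irreproducible discovery rate of 0.01. The authors deposited log2 values per region and library (regularised log from DESeq2, input subtracted), positions of peaks and regions in b, and raw read counts per gene from STAR and featureCounts 1.6.2. The deposited fold changes and p-values of the authors' own comparisons were not used here. The value tables name genes by the authors' nearest TSS annotation.

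The log2 values were fitted in limma 3.58.1 (R 4.3.3) over all 10 libraries of an assay (trend of variance on mean value), although DESeq2 was the study's tool, because the deposited values are not counts. Counts of 14092 genes with more than 10 reads over 12 libraries were compared with edgeR 4.0.16 (TMM, quasi-likelihood). Calls needed a Benjamini-Hochberg adjusted p below 0.05 over all features and a change above 1.5-fold. Each gene counted once in pSer2 Pol2, through whichever called region changed most. A pSer2 Pol2 value given for a gene is that of 1 region. CPM are TMM-scaled. The tests were checked on simulated data. Figures used matplotlib 3.10.9 in Python 3.11.15.

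Named were the 10 sites of highest CONS mean and of largest CONS minus PEAK_140, those nearest the distance limit, sites called at NADIR_180, up to 20 called nearest genes per assay by fold change, genes with 3 or more sites and genes on the pathway lists. The sites, lists and rule were chosen with earlier results of these data known. ChIP libraries pool rats and each group has 2, so p-values rest on few libraries. Same-numbered pSer2 Pol2 libraries deviated together (correlations of 0.155 to 0.553 over 6 pairs of groups), so the replicate block is given where it changes a count; GR (-0.027 to 0.072) and RNA libraries (-0.035 to 0.054) did not, and VEH ChIP libraries carry no number. Alternatives were other normalizations, filters, tools, overlap and distance limits, and leaving out each library.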

Additional observations from a re-analysis of the deposited data

How the results depend on the processing

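The number of sites was 499 at an overlap of 50%, 486 without sites that had a NADIR_180 or VEH peak, 385 beyond 5000 b, and 354 when CONS_140 replicate 2 had to be at 0 or above, a condition chosen after seeing the data; under it 6 nearest genes were called in CONS_180 against NADIR_180 instead of 10. Counts of called nearest genes in PULS and CONS RNA stayed within 1.5 times under every alternative tried (27 to 38 and 58 to 71 on leaving out 1 library). For the difference of the RNA responses DESeq2 called 21, edgeR without the read filter 24, and leaving out 1 library gave 0 to 18, the highest without replicate 1 of constant VEH. The pSer2 Pol2 library medians ranged from 2.36 to 2.84, and centring each library gave 41 genes at CONS_140, 23 at CONS_180, 1 at NADIR_180, 24 between CONS_140 and PEAK_140 (15 raised, 9 lowered) and 20 in CONS_180 against NADIR_180. At CONS_140 against VEH the split under centring was 31 raised and 10 lowered, in place of 23 and 2. With only the 4 libraries compared the fits had few degrees of freedom and gave 0, 0 and 3 genes for PEAK_140, CONS_140 and CONS_180 against VEH, 0 in both comparisons between patterns, and 0 GR sites at NADIR_180, where centring also gave 0. Between CONS_140 and PEAK_140, 9 genes were called with no trend and 0 by the region of highest mean. Leaving out 1 library gave 5 to 21 genes at PEAK_140, 0 to 1 at NADIR_180, 6 to 73 at CONS_140, 0 to 8 at CONS_180, 0 to 102 between CONS_140 and PEAK_140, 0 to 9 in CONS_180 against NADIR_180, and 1 to 21 GR sites at NADIR_180; 73 and 102 were without CONS_140 replicate 2. The causes of these shifts were not tested. Among genes with no other GR region, 0 were raised at PEAK_140 in each alternative, but the count raised at CONS_140 was 0 to 26 on leaving out 1 library (26 without CONS_140 replicate 2, against 40 with another region), and the count lowered at PEAK_140 was 2 to 7.

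The replicate block gave 35 genes at PEAK_140, 31 at CONS_140, 12 at CONS_180, 13 in CONS_180 against NADIR_180, 39 in PULS RNA and 65 in CONS RNA, and 28 between CONS_140 and PEAK_140; in GR and RNA, where the libraries share only a number, it was not read as a pairing.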
